A study of Homo sapiens with 4 samples.

Results

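Notch signalling was examined through 10 genes in KM-H2, an established line of Hodgkin lymphoma cells. They are the receptors NOTCH1, NOTCH2 and NOTCH3, the ligands JAG1, JAG2 and DLL1, the nuclear factors RBPJ and MAML2, and the target genes HES1 and HEY1. The genes were listed by name, and every probe set that the platform annotation gives to a single one of them was taken. That gave 28 of the 54675 probe sets on the arrays, for 10 of 19775 genes. A further probe set carries the names of NOTCH2 and of 4 NOTCH2NL copies and was left out.

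Total RNA was measured on 4 Affymetrix expression arrays, 2 in each group. The knockdown group was KM-H2 treated with small interfering RNA against PTPN1, which encodes a phosphatase that removes phosphate from tyrosines of signalling proteins, and the control group was the same line given a non-silencing treatment. Both groups were grown under standard conditions, and both carry whatever the line itself carries, since a single line was used. The submitters call the arrays of a group technical replicates, so SDs, intervals and p-values measure the spread between arrays and not between cultures. Values are log2 expression. The arrays were numbered 1 and 2 within each group, and nothing in the labels says that a number stands for a shared culture or batch.

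Notch is a receptor that a ligand on a neighbouring cell opens to cleavage. The freed intracellular part enters the nucleus, binds the DNA-binding protein RBPJ, recruits a Mastermind coactivator such as MAML2, and switches on genes of the HES and HEY families of repressors. In B cells NOTCH2 is known for its part in marginal zone cells. In Hodgkin lymphoma, whose tumour cells descend from B cells that have lost much of the B cell programme, NOTCH1, JAG1 and MAML2 have been studied as parts of an active pathway.

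Before the pathway is described, some facts on the arrays bear on every value. PTPN1 read 7.00 and 7.36 in the knockdown arrays against 8.16 and 8.40 in the non-silencing arrays with its brightest probe set, a difference of -1.10 (SE 0.18) that did not pass (limma adjusted p = 1.0). Its other 3 probe sets lay below the array medians and differed by 0.01, -0.07 and -0.03. Array medians lay between 5.10 and 5.12. Arrays with the same number were more alike (Pearson's r 0.993 and 0.994 across probe sets, which are not independent replicates) than arrays of a group (0.988 and 0.990). All 10 Hodgkin cell markers looked at, among them TNFRSF8, which encodes CD30, and IRF4, read above the array medians in both non-silencing arrays. So did 6 of 7 B cell markers, the exception being MS4A1, which averaged 4.40 in the knockdown and 4.83 in the non-silencing arrays. Of the 6, CD79B (5.199 and 5.123) and VPREB3 (5.185 and 5.225) were barely above the medians in the non-silencing arrays. Of 8 T cell markers 4 read above the medians there and 4 did not. With each gene read by its brightest probe set, 12254 of all 19775 genes read above the medians in both non-silencing arrays. Against 12.4% of all genes higher in both knockdown arrays and 15.0% lower in both, 0 of the 7 B cell markers were higher and 3 lower, with a median difference of -0.15, and 2 of the 10 Hodgkin cell markers were higher and 1 lower, with a median of 0.30. Medians over 8 T cell, 6 myeloid and 8 stromal and endothelial markers were -0.02, -0.08 and -0.06, and the part of such shifts in the values below was not tested.

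The receptors differed in how they read in KM-H2. NOTCH2 was measured above the array medians by all 4 of its probe sets. Its brightest, 202443_x_at, read 10.19 and 10.41 in the knockdown arrays against 10.19 and 10.27 in the non-silencing arrays, and lay at percentiles 94.6 to 95.4 of the arrays' probe sets. The second, 212377_s_at, read 10.16 and 10.42 in the knockdown arrays against 10.19 and 10.29 in the non-silencing arrays. The groups overlapped in both, and the differences were 0.07 (95% interval -0.29 to 0.43) and 0.05 (-0.33 to 0.43). The remaining NOTCH2 probe sets, 210756_s_at and 202445_s_at, differed by -0.02 and 0.01. The platform's x suffix marks probe sets whose probes may also match other transcripts, and NOTCH2 has near-identical partial copies in the NOTCH2NL genes, so 202443_x_at may not read NOTCH2 alone. In bulk RNA, fewer cells with a transcript and less of it per cell cannot be told apart, here and for all genes that follow.

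NOTCH1, the receptor most often named in Hodgkin cells, was read differently by its probe sets. With 218902_at it read 8.27 and 7.65 in the knockdown arrays against 7.96 and 7.54 in the non-silencing arrays. Each group had its higher value in array 1, and the groups overlapped. The difference was 0.21 (95% interval -0.45 to 0.86) and was 0.31 within number 1 and 0.10 within number 2. The other NOTCH1 probe set, 223508_at, stayed below the array medians at 4.81 and 4.68 in the knockdown arrays against 4.80 and 4.93 in the non-silencing arrays, a difference of -0.12.

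NOTCH3, itself known as a target of Notch signalling in T cells, read 6.18 and 5.83 in the knockdown arrays against 5.83 and 5.88 in the non-silencing arrays with 203237_s_at. Only knockdown array 1 stood above the rest, and the difference of 0.15 (95% interval -0.26 to 0.57) was 0.35 within number 1 and -0.05 within number 2. Its second probe set, 203238_s_at, read 4.77 and 4.70 in the knockdown arrays against 4.68 and 4.56 in the non-silencing arrays. There both knockdown arrays were higher, by 0.12 on average, at a level below the array medians.

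**Figure D1:**
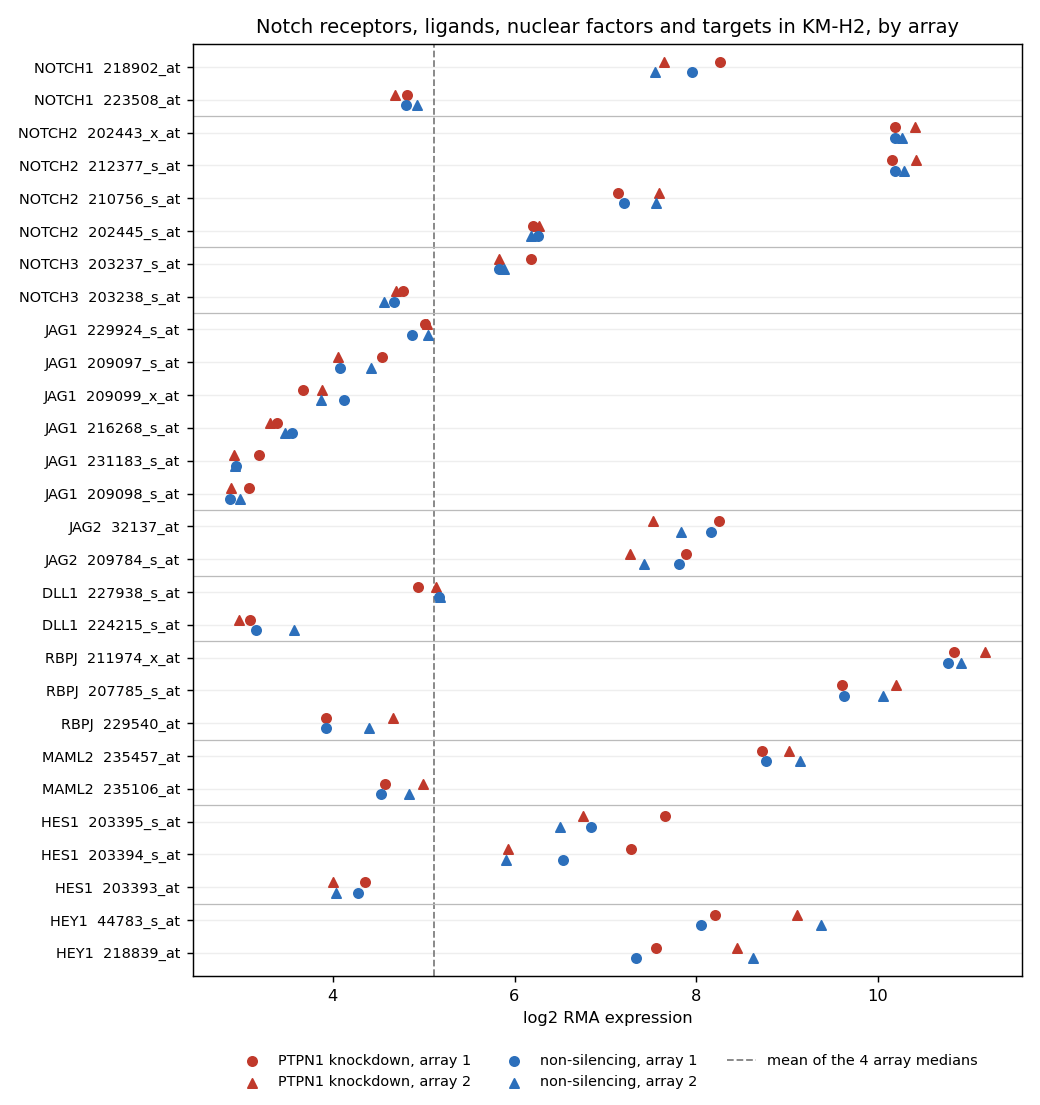
Log2 expression of each of the 28 Notch probe sets in each array, grouped by gene, with PTPN1 knockdown in red and non-silencing in blue, circles for arrays numbered 1 and triangles for arrays numbered 2; the dashed line is the mean of the 4 array medians. Of the 28 probe sets 15 lie above the median of every array and 12 below it, and for HEY1, JAG2 and HES1 the circles and triangles lie farther apart than the colours.

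Among the ligands, JAG2 was the only member that read above the array medians in every array. JAG2, a membrane-bound ligand of the Jagged type, read 8.26 and 7.52 in the knockdown arrays against 8.16 and 7.83 in the non-silencing arrays with 32137_at. Its other probe set, 209784_s_at, read 7.89 and 7.27 in the knockdown arrays against 7.81 and 7.42 in the non-silencing arrays. In both probe sets the knockdown arrays held the highest and the lowest value, so that the non-silencing arrays lay between them, and the differences were -0.11 (95% interval -0.80 to 0.59) and -0.04 (-0.69 to 0.61).

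JAG1, the Jagged ligand described in Hodgkin tissue, read below the median of each array with all 6 of its probe sets. The brightest, 229924_s_at, read 5.02 and 5.03 in the knockdown arrays against 4.87 and 5.05 in the non-silencing arrays, a difference of 0.07 (95% interval -0.27 to 0.40). The differences of the other 5 ran from -0.22 for 209099_x_at to 0.12 for 231183_s_at. With 216268_s_at both knockdown arrays were lower, at 3.38 and 3.31 against 3.55 and 3.48 in the non-silencing arrays, between percentiles 8.72 and 12.9 of the arrays.

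DLL1, a Delta-type ligand that NOTCH2 needs in mouse marginal zone B cells, lay near or below the array medians. With 227938_s_at it read 4.93 and 5.13 in the knockdown arrays against 5.17 and 5.18 in the non-silencing arrays, a difference of -0.14 (95% interval -0.49 to 0.20). With 224215_s_at it read 3.08 and 2.97 in the knockdown arrays against 3.15 and 3.57 in the non-silencing arrays, a difference of -0.34 (-0.79 to 0.12). Both DLL1 probe sets had both knockdown arrays below both non-silencing arrays. DLL1 was the only one of the 10 genes for which that held in every probe set, and neither probe set exceeded 5.18 in any array.

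RBPJ, the DNA-binding protein through which all Notch receptors act, read above the array medians with a pair of its 3 probe sets. With 211974_x_at it read 10.84 and 11.18 in the knockdown arrays against 10.77 and 10.92 in the non-silencing arrays. With 207785_s_at it read 9.60 and 10.20 in the knockdown arrays against 9.63 and 10.05 in the non-silencing arrays. The differences were 0.16 (95% interval -0.26 to 0.58) and 0.06 (-0.59 to 0.70), with overlapping groups and the higher value of each group in array 2. The third probe set, 229540_at, stayed below the medians, from 3.92 to 4.67 over the 4 arrays, and differed by 0.14.

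MAML2, the Mastermind coactivator that joins RBPJ and the receptor's intracellular part, read 8.72 and 9.02 in the knockdown arrays against 8.77 and 9.14 in the non-silencing arrays with 235457_at. The arrays of each number lay close together and the numbers apart, which left a group difference of -0.08 (95% interval -0.57 to 0.40). The second MAML2 probe set, 235106_at, lay below the medians and differed by 0.10.

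HES1, a basic helix-loop-helix repressor and the most widely used readout of Notch activity, had the largest difference among the 28 probe sets. With 203395_s_at it read 7.66 and 6.75 in the knockdown arrays against 6.84 and 6.50 in the non-silencing arrays. Knockdown array 1 stood above all others, but knockdown array 2 lay below non-silencing array 1, so the groups overlapped. The mean difference of 0.53 (SE 0.32, 95% interval -0.28 to 1.35) was 0.82 within number 1 and 0.25 within number 2, and did not pass (limma adjusted p = 1.0). Leaving out knockdown array 1 left 0.08.

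The second HES1 probe set, 203394_s_at, read 7.28 and 5.92 in the knockdown arrays against 6.53 and 5.91 in the non-silencing arrays. Its difference of 0.39 (95% interval -0.81 to 1.58) was 0.75 within number 1 and 0.02 within number 2, and leaving out knockdown array 1 turned it to -0.29. The last HES1 probe set, 203393_at, lay below the medians in every array and differed by 0.03.

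HEY1, a relative of HES1 that also represses transcription, differed far more between the array numbers than between the groups. With 44783_s_at it read 8.21 and 9.10 in the knockdown arrays against 8.05 and 9.37 in the non-silencing arrays. With 218839_at it read 7.56 and 8.45 in the knockdown arrays against 7.33 and 8.63 in the non-silencing arrays. Both arrays numbered 2 were above both arrays numbered 1 in each probe set, while the knockdown arrays lay between the non-silencing arrays. The group differences were -0.06 (95% interval -1.33 to 1.22) and 0.02 (-1.23 to 1.28), the first of which was -0.72 without non-silencing array 1 and 0.61 without non-silencing array 2.

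RBPJ is known to bind the core TGGGAA before genes of the HES and HEY families, and 4 upstream sequences that hold it in the gene's orientation are shown. The 120 bases before the RefSeq start are given 5′ to 3′ on the gene's strand in build GRCh38.p14, with TGGGAA or its reverse complement TTCCCA in capitals.
HES1, chr3:194136028-194136147, plus strand: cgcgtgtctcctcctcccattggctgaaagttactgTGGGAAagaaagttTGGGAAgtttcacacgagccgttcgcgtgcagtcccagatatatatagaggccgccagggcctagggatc
HES4, chr1:1000098-1000217, minus strand: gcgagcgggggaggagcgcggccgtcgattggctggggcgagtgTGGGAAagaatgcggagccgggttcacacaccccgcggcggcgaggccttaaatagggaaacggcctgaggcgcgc
HES5, chr1:2530264-2530383, minus strand: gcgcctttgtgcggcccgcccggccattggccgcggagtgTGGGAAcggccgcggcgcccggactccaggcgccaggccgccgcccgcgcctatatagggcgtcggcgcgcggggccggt
HEYL, chr1:39639644-39639763, minus strand: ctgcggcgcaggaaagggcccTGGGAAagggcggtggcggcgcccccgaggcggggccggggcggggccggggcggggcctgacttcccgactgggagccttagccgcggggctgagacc

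HES1 holds the core at positions -84 to -79 and -70 to -65 from its start, both in the gene's orientation. HES4 holds it at -76 to -71, HES5 at -80 to -75 and HEYL at -99 to -94. Farther from the start than the bases shown, HES5 and HEYL also hold the reverse complement, at -224 to -219 and at -178 to -173. HES3 and HEY2, not shown, hold only the reverse complement, at -114 to -109 and at -213 to -208, and no core was found in the 250 bases before HES2, HES6 and HES7. Over the 250 bases before each start, 20.8% of 35116 RefSeq promoters held at least 1 such core on either strand, and 2.9% held 2 or more. Among the Notch genes and listed targets, 7 of 33 promoters held at least 1 core, a share close to the 20.8%. Those 7 were the promoters of HES1, HES3, HES4, HES5, HEY2 and HEYL and 1 RBPJ start. HES1, HES5, HEYL and the RBPJ start held 2 cores each. The 33 include several starts of RBPJ and GATA3, and the HES and HEY promoters were not tested against the background on their own. Of the 10 Notch genes 8 were covered, with 12 starts between them, and HEY1 and DLL1 were not. Starts on chromosome 8 were left out for the listed genes but not for the background. Among the covered Notch genes the core was found before HES1 and before 1 of 5 RBPJ starts. HES4 averaged 5.06 in the knockdown and 5.08 in the non-silencing arrays, HES5 4.48 and 4.56, and HEYL 5.72 and 5.74. A match describes the letters only.

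Set side by side, the 28 probe sets gave no call between knockdown and non-silencing. In limma 0 of 28 had an adjusted p under 0.05, where 0.0% of all 54613 probe sets tested did (lowest adjusted p 0.248). At an unadjusted p under 0.05 there were 0 of 28 member probe sets, against 2.5% of all, and an unmoderated linear model also called 0 probe sets. Both knockdown arrays were above both non-silencing arrays in 1 of the 28, against 13.4% of all probe sets, and below them in 3, against 15.3%. All 4 lay near or below the array medians: NOTCH3 203238_s_at was the higher and JAG1 216268_s_at and the DLL1 pair were the lower ones.

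The median difference was 0.05, against -0.005 over all probe sets, and the median size of the difference was 0.11, against 0.10 over all. For 25 of the 28 the difference was smaller than 0.25 in either direction, the exceptions being HES1 203395_s_at, HES1 203394_s_at and DLL1 224215_s_at. For a single probe set an exact permutation test cannot go below p = 0.333 with 2 arrays in each group. The 95% intervals of 24 probe sets lay within -1 and 1, that is within a 2-fold difference, and those of HES1 203395_s_at, HES1 203394_s_at and both HEY1 probe sets did not.

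**Figure D2:**
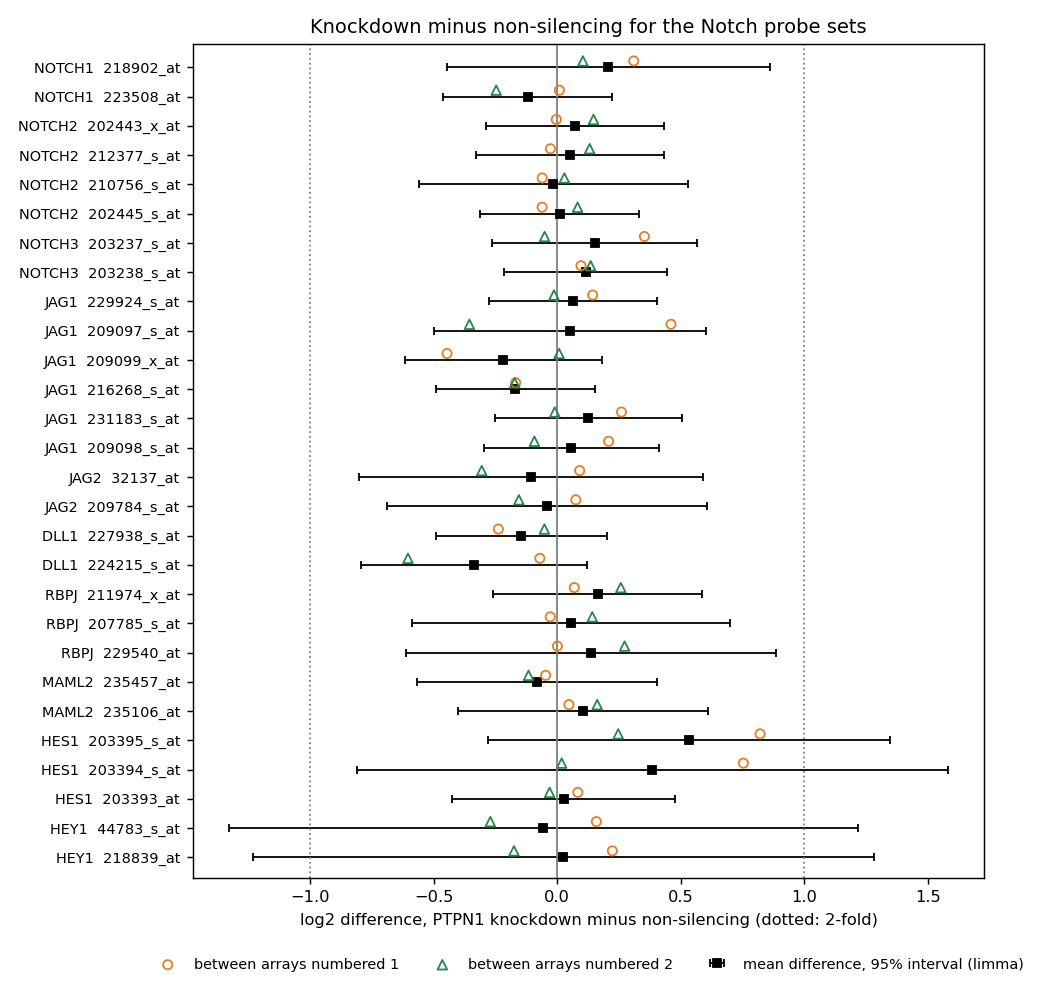
Log2 difference between PTPN1 knockdown and non-silencing for each Notch probe set, with black squares for the mean difference and bars for its 95% limma interval, open circles for the difference within number 1 and open triangles for that within number 2. Every bar crosses 0, and the bars of HES1 203395_s_at, HES1 203394_s_at and both HEY1 probe sets reach past the dotted 2-fold lines.

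Within the array numbers, 11 of the 28 probe sets differed with the same sign in both, 7 above 0 and 4 below, against 56.2% of all probe sets with the same sign. Those above 0 were NOTCH1 218902_at, NOTCH3 203238_s_at, RBPJ 211974_x_at and 229540_at, MAML2 235106_at, and HES1 203395_s_at and 203394_s_at. The remaining 17 had opposite signs.

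Array numbers differed more than the groups in 19 of the 28 probe sets (67.9%), against 60.4% of all probe sets. Both arrays numbered 2 lay on the same side of both arrays numbered 1 in 18 of the 28 probe sets (64.3%), against 49.1% of all probe sets. They were higher in 11, against 22.1% of all, and lower in 7, against 27.0%. With HEY1 44783_s_at the difference of number 2 minus number 1 was 0.90 in the knockdown group and 1.32 in the non-silencing group, a mean of 1.11 (SE 0.14) in a fit with terms for group and number (limma adjusted p = 0.0072). RBPJ 207785_s_at was higher in the arrays numbered 2 by 0.51 (adjusted p = 0.0428). HES1 203394_s_at was lower there by a difference of -0.99 (adjusted p = 0.019), NOTCH1 218902_at by -0.52 (adjusted p = 0.0425) and JAG2 209784_s_at by -0.51 (adjusted p = 0.0467).

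In that fit 7 of the 28 probe sets passed for the number, against 8.09% of all probe sets, and the fit was added after the values were seen. Both HEY1 probe sets and HES1 203394_s_at passed there with opposite signs, while HES1 203395_s_at, at -0.63, did not pass (adjusted p = 0.0512). The 3' minus 5' signal of the beta-actin controls, which reflects RNA integrity and amplification, also separated the numbers. It was 0.969 in knockdown array 2 and 0.972 in non-silencing array 2, against 1.33 in knockdown array 1 and 1.31 in non-silencing array 1, and its part in these values was not tested.

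**Figure D3:**
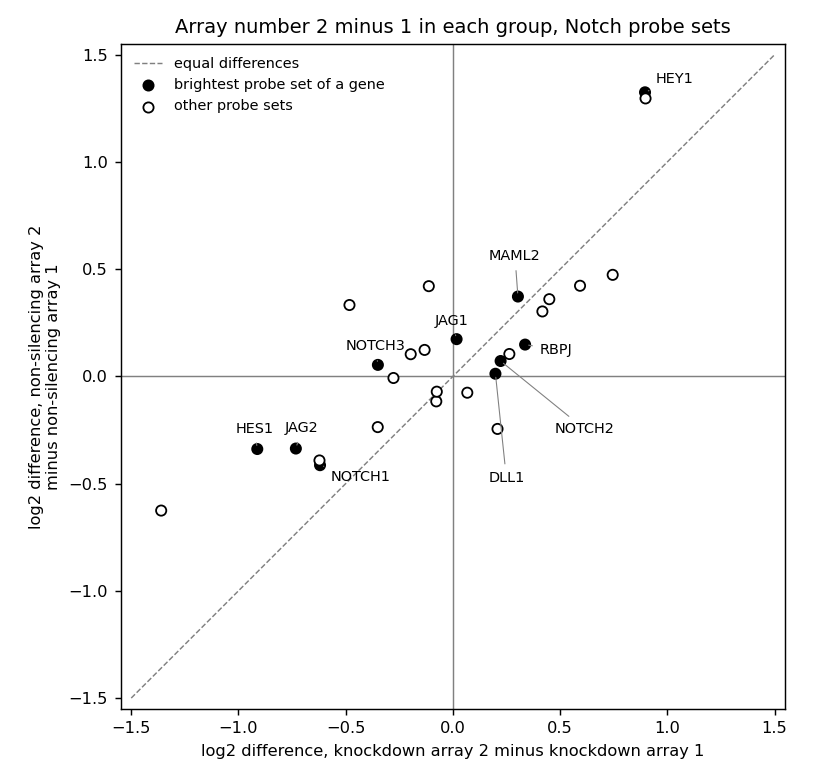
Log2 difference between array 2 and array 1 within the knockdown group (horizontal) and within the non-silencing group (vertical) for the 28 Notch probe sets, with filled points for the brightest probe set of each gene; the dashed line marks equal differences. The brightest probe set of HEY1 lies at the upper right (0.90 and 1.32) and those of HES1, JAG2 and NOTCH1 at the lower left, so these 4 probe sets differed between the numbers in the same direction in both groups; the second NOTCH1 probe set does not lie there (-0.13 and 0.12).

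The rest of the pathway was described with 7 further lists of 93 genes, of which 88 were measured, each by its brightest probe set. None passed in limma (0 of 88 at an adjusted p under 0.05, against 0.0% of all 19775 genes), and 4 had an unadjusted p under 0.05, against 2.57% of all. The knockdown arrays were both higher for 14 genes (15.9%, against 12.4% of all genes) and both lower for 12 (13.6%, against 15.0%). The median difference over the 88 genes was 0.03, against -0.007 over all genes.

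Of the other receptors and ligands, DLK1 stood alone. DLK1, a Delta-like protein that lacks the domain by which classical ligands bind Notch, read 11.41 and 11.61 in the knockdown arrays against 7.43 and 5.75 in the non-silencing arrays with 209560_s_at, a difference of 4.92 (SE 0.55, limma adjusted p = 0.248), while its dim second probe set differed by 0.16. With the array number as a block DLK1 passed (adjusted p = 0.0169), although the labels do not say that the numbers pair the arrays. The classical ligand gene DLL4 averaged 5.67 in the knockdown and 5.76 in the non-silencing arrays, NOTCH4 5.42 and 5.36, and EGFL7, which encodes a secreted Notch binder of endothelium, 5.65 and 5.69. The groups were apart for all 3, by -0.08, 0.06 and -0.04. With 205247_at, a dimmer probe set, NOTCH4 averaged 5.12 in the knockdown and 4.79 in the non-silencing arrays. That was a difference of 0.33, with both knockdown arrays higher. Over the 10 genes 2 were apart and higher and 3 apart and lower, with a median difference of -0.05.

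The cleavage machinery read above the array medians in both non-silencing arrays for all 8 genes measured, as did 12254 of all 19775 genes. The sheddase genes ADAM10 and ADAM17, whose products make the first ligand-induced cut, averaged 11.45 and 9.49 in the knockdown arrays and 11.46 and 9.46 in the non-silencing arrays. PSEN2, a catalytic subunit of gamma-secretase, read 8.22 and 8.29 in the knockdown arrays against 8.07 and 8.09 in the non-silencing arrays, the only gene of the 8 with the groups apart (difference 0.17, 95% interval -0.14 to 0.49). Differences in this list ran from -0.09 to 0.17.

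Among the 5 sugar-transfer genes, which modify the receptors' extracellular repeats, POFUT1 differed by 0.13 and POGLUT1 by 0.05 with both knockdown arrays higher. The fringe gene MFNG averaged 9.07 in the knockdown and 9.13 in the non-silencing arrays. For the 16 genes of ligand endocytosis and receptor turnover the median difference was 0.00. Of them 3 were apart and higher (18.8%, against 12.4% of all genes) and 3 apart and lower (18.8%, against 15.0%). The ubiquitin ligase gene MIB2 differed by -0.19 with its brightest probe set. Its dim probe set 241378_at had both knockdown arrays higher, by 0.19, and its others ran from -0.02 to 0.13 with overlapping groups. FBXW7, whose product marks the intracellular part for degradation, differed by 0.09 with its brightest probe set. With 222729_at both knockdown arrays were higher, by 0.22, and its others differed by 0.15 and 0.28 with overlapping groups. DTX4 differed by -0.09. DTX3L, a ligase gene known to respond to interferon and named here after its value was seen, read 4.58 and 4.30 in the knockdown arrays against 3.64 and 3.58 in the non-silencing arrays, a difference of 0.83 at a level below the array medians.

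The nuclear cofactors held 20 measured genes, with a median difference of 0.06. Of these, 18 read above the medians in both non-silencing arrays, as did 12254 of all 19775 genes. TLE1, a Groucho-type corepressor that HES proteins recruit, read 7.13 and 7.62 in the knockdown arrays against 7.90 and 7.77 in the non-silencing arrays. Both knockdown arrays were lower, by -0.46 (SE 0.20, limma adjusted p = 1.0) on average and by -0.77 and -0.15 within the numbers. Without knockdown array 1 it was -0.21, the mean of the 5 TLE1 probe sets was -0.18, and the dim probe set 227130_s_at had both knockdown arrays higher, by 0.23. Its relative TLE4 differed by -0.22 and the acetyltransferase gene CREBBP by 0.23, in the same direction within both numbers.

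**Figure D4:**
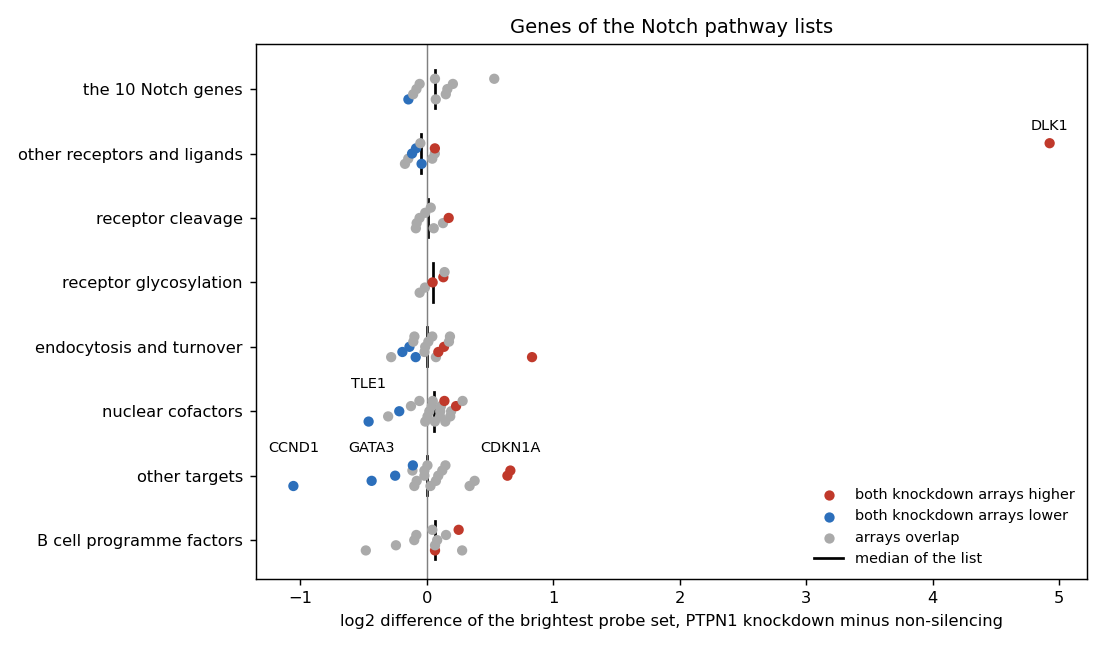
Log2 difference between PTPN1 knockdown and non-silencing for the brightest probe set of each gene in the 10 Notch genes and the 7 further lists, in red where both knockdown arrays were higher, blue where both were lower and grey where the groups overlapped, with a black bar at each list's median. Medians lie between -0.05 and 0.07, and DLK1 at 4.92 is the only gene of these lists beyond a difference of 2 in either direction.

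Further targets of Notch gave values on either side of 0, with a median difference of 0.01 over 19 genes. Of them 2 were apart and higher (10.5%, against 12.4% of all genes) and 4 apart and lower (21.1%, against 15.0%). GATA3, a T cell transcription factor that is known as a Notch target and is expressed in Hodgkin cells, read 9.79 and 9.82 in the knockdown arrays against 10.23 and 10.26 in the non-silencing arrays. The arrays of a group lay close together (SD 0.03 in knockdown and 0.02 in non-silencing arrays, n = 2 each). The difference was -0.44 (SE 0.12, 95% interval -0.75 to -0.12), with -0.44 and -0.43 within the numbers, but it did not pass (limma adjusted p = 1.0). Its other probe sets, 209602_s_at and 209603_at, differed by -0.61 and -0.47, with both knockdown arrays lower in each.

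HEY2, a further repressor gene of the HEY family, read 5.97 and 5.75 in the knockdown arrays against 5.57 and 4.86 in the non-silencing arrays, a difference of 0.64 (SE 0.26) that was 0.99 without non-silencing array 1 and 0.28 without non-silencing array 2. Its second probe set, 219743_at, differed by 0.47, again with both knockdown arrays higher. CDKN1A, which encodes a cell cycle inhibitor, read 8.98 and 8.48 in the knockdown arrays against 8.01 and 8.13 in the non-silencing arrays, a difference of 0.66 (SE 0.20) that was 0.41 without knockdown array 1. CCND1, which encodes cyclin D1, read 4.56 and 4.35 in the knockdown arrays against 6.39 and 4.63 in the non-silencing arrays. Its difference was -1.05 (SE 0.57), and -0.17 without non-silencing array 1.

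Among the targets with groups that overlapped, CR2, known in B cells as a gene induced through NOTCH2, read from 12.46 to 12.68 over the 4 arrays, and NRARP, a feedback inhibitor of the Notch complex, from 8.30 to 8.67. DTX1, a feedback regulator, lay at 5.02 to 5.23 in the knockdown arrays and 4.98 to 5.13 in the non-silencing arrays. The last list held 11 genes, both factors of the B cell programme that Notch is known to oppose and inhibitors of such factors. Of these genes 2 were apart and higher, ID2 and SPI1 (18.2%, against 12.4% of all genes), and 0 apart and lower (against 15.0%). SPI1 read 4.74 and 4.66 in the knockdown arrays against 4.65 and 4.62 in the non-silencing arrays. That was a difference of 0.07 at a level below the array medians. ID2, an inhibitor of E proteins, read 13.21 and 13.32 in the knockdown arrays against 12.98 and 13.05 in the non-silencing arrays, a difference of 0.25 (SE 0.13). PAX5, which holds B cells to their identity, differed by 0.15 with overlapping groups.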

How the data were processed

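Values were used as deposited: log2 expression from RMA run by the authors, per the processing notes of the submitters. RMA corrects background, gives arrays the same quantiles and reduces probes to a value per probe set, which makes distributions alike and compresses differences among dim probe sets. The labels' protocols give 2 cycles of amplification of the biotinylated cRNA. Software version and genome build were not stated. The number of arrays limits the precision.

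Probe sets were named from the platform annotation through RefSeq identifiers (GRCh38.p14, 0 symbols changed). Of 54613 probe sets besides 62 controls, 41091 had 1 symbol. Groups were taken from titles. The test was limma 3.58.1 in R 4.3.3 (lmFit and eBayes, two-sided, no covariates), adjusted by Benjamini-Hochberg over all probe sets or, with each gene's brightest probe set, over 19775 genes, at 0.05, and was tested on simulated data. Levels give no order of transcripts, since probe sets differ in affinity. Some listed genes were not analysed here. Members, lists and tests were chosen with earlier results of these data known.

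Besides the members, named genes were those past the threshold, those at least 2-fold different with the groups apart, and up to 3 more a list by size among genes with the groups apart and above the array medians in a group. Levels of some marker and target genes were chosen after their values were seen. Alternatives were quantile normalization, median centring, a filter on dim features, other variance models, testing against a fold of 1.2, a replicate block, other probe set choices and leaving out each array.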

Additional observations from a re-analysis of the deposited data

How the results depend on the processing

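With 2 arrays in each group, and technical replicates at that, only large differences could pass. Among all probe sets 0 were called under every alternative except the replicate block, with 164, and leaving out single arrays, with 0 to 1. Among genes the count was 0 except with a trended, robust variance (3), with the replicate block (72) and without single arrays (0 to 1). The gene called without non-silencing array 1 or without non-silencing array 2 was DLK1, whose spread lay between those arrays. None of the 28 Notch probe sets was called under any alternative, the lowest adjusted p with the block being 0.369. The samples share only a number, so the block is no paired test. Deviations of same-numbered arrays from their group means correlated at 0.593 across probe sets.

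The sign of 4 differences depended on scaling or on the probe set: NOTCH2 210756_s_at was 0.0024 with centred arrays, NOTCH2 202445_s_at was -0.0043 after quantile normalization, MIB2 was 0.025 with the mean of its probe sets and 0.13 with the probe set of largest spread, and TLE4 was 0.034 with that choice. Leaving out single arrays turned the sign of 21 of the 28 Notch probe sets. The share over all probe sets was not counted, so the number does not set the Notch genes apart. The cause was not tested. NOTCH1 ranged from -0.10 to 0.52 with 218902_at. NOTCH2 ranged from -0.040 to 0.18 with 202443_x_at, from -0.080 to 0.18 with 212377_s_at, from -0.24 to 0.21 with 210756_s_at and from -0.027 to 0.049 with 202445_s_at. NOTCH3 ranged from -0.024 to 0.33 with 203237_s_at. JAG1 ranged from -0.021 to 0.15 with 229924_s_at, from -0.19 to 0.29 with 209097_s_at, from -0.014 to 0.26 with 231183_s_at and from -0.041 to 0.16 with 209098_s_at. JAG2 ranged from -0.47 to 0.26 with 32137_at and from -0.35 to 0.27 with 209784_s_at. RBPJ ranged from -0.0051 to 0.33 with 211974_x_at, from -0.24 to 0.35 with 207785_s_at and from -0.24 to 0.51 with 229540_at. MAML2 ranged from -0.27 to 0.10 with 235457_at and from -0.10 to 0.31 with 235106_at. HES1 ranged from -0.29 to 1.07 with 203394_s_at and from -0.15 to 0.20 with 203393_at. HEY1 ranged from -0.72 to 0.61 with 44783_s_at and from -0.62 to 0.67 with 218839_at. The others kept their sign, HES1 203395_s_at between 0.078 and 0.99. The median over the 28 probe sets lay between -0.031 and 0.11.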
